A study of Homo sapiens with 4 samples.

Results

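The SPARC family comprises secreted matricellular proteins, which bind extracellular matrix, growth factors or cell surface receptors and modify how cells meet the matrix rather than building it. The family was defined here as 8 genes, SPARC, SPARCL1, SMOC1, SMOC2, SPOCK1, SPOCK2, SPOCK3 and FSTL1. A gene was measured where a probe set of the array named that gene alone, and the probe set with the highest mean over the 4 arrays was used where several did. This gave 7 of the 8 genes, out of 17958 genes measured in all, and each of the 7 had a single probe set. FSTL1 shares its probe set with the microRNA gene MIR198, which lies within the FSTL1 transcript, so it is described separately and is not counted.

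HCT116, the line studied, is an established cell line from a human colorectal carcinoma. Treated cells received 5-aza-2'-deoxycytidine (decitabine), a nucleoside analog that traps DNA methyltransferases once incorporated during replication, at 1 µM from 24 hours after seeding and again 48 hours after the first dose. Vehicle cells were the comparison group, and the labels do not name the vehicle. RNA of both groups was taken 72 hours after the first dose, giving 2 treated and 2 vehicle arrays. The labels do not say whether the samples came from separate cultures, and p-values reflect only the variation among these samples, possibly technical.

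Members of the family share a follistatin-like domain and, in most, an extracellular calcium-binding domain with EF hands. In the intestine SPARC is known mainly as a product of stromal fibroblasts, and methylation of its promoter in epithelial cancers, colorectal cancer included, is well described. Methylation itself was not measured in these samples.

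Levels are log2 RMA values, in which a difference of 1 is a 2-fold difference. Levels of different genes are not compared, because each probe set has its own response. A gene was called higher or lower at a limma p-value under 0.05 after Benjamini-Hochberg adjustment over all 17958 genes. Of these, 12.4% were called higher and 15.6% lower, together 28.0%. With all arrays 2229 genes were higher and 2794 lower. These calls fell to 1267 higher and 1196 lower when vehicle replicate 1 was left out, and to 1335 and 1237 when vehicle replicate 2 was, so that rises made up 7.06% and 7.43% of all genes in these fits. Array medians were 5.84 on both treated arrays and 5.73 and 5.72 on the vehicle arrays, so they differed by group. Pearson's correlation over 33297 probe sets, which are not independent replicates, was 0.992 between treated arrays and 0.995 between vehicle arrays. Some epithelial markers were not called, while most were called lower. KRT8, a keratin of simple epithelia, averaged 13.22 in treated and 13.01 in vehicle cells, and CDH1, the epithelial cadherin, averaged 10.17 in treated and 10.23 in vehicle cells (both genes were chosen after their values were seen). Of 11 epithelial markers tested, 1 was called higher and 7 lower, including GRHL2 (log2 fold change -1.87, SE 0.13) and ELF3 (-0.99, SE 0.13), transcription factors of epithelia. DNMT1, the maintenance DNA methyltransferase, did not pass the test (log2 fold change -0.12, SE 0.12, limma adjusted p = 0.540).

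SPARC, SPOCK1 and SPOCK2 rose, SPOCK3 fell, and SPARCL1, SMOC1 and SMOC2 were not called. The calls thus covered 4 of 7 genes, against 28.0% of all genes. The members were chosen with earlier results of these data known, so this share is a description only. Treated and vehicle arrays did not overlap for the same 4 genes, as they did not for 65.8% of all genes. The median log2 fold change of the 7 genes was 0.18, against -0.07 over all genes.

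**Figure D1:**
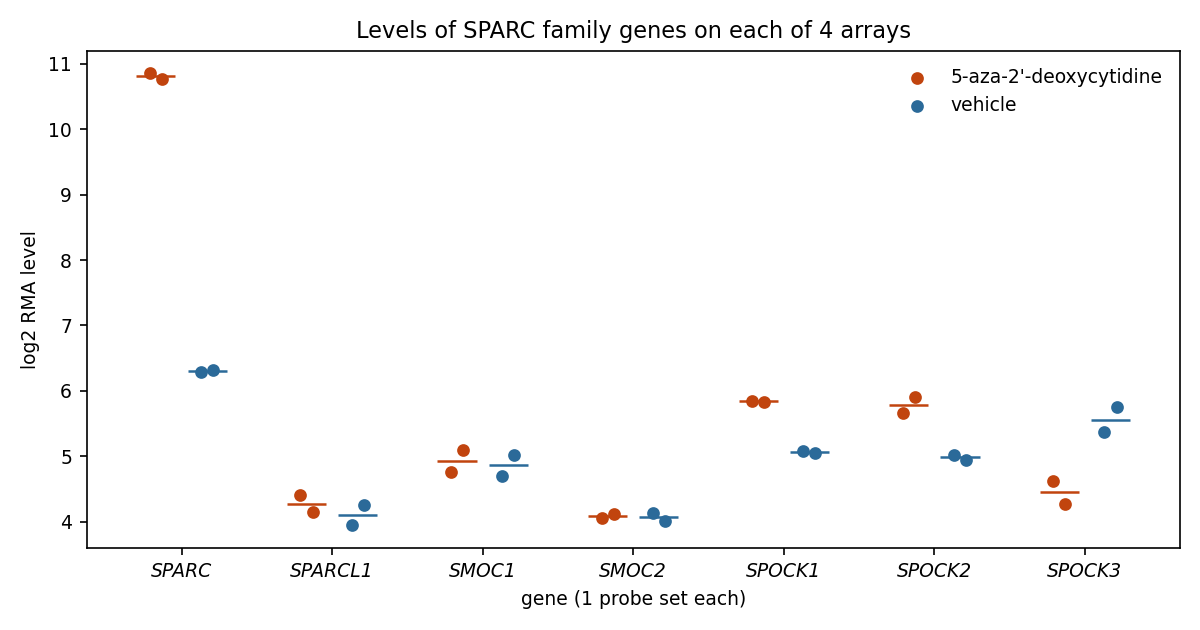
Log2 RMA level (vertical axis) of each SPARC family gene (horizontal axis) on the 2 treated (red, left) and 2 vehicle arrays (blue, right), with group means as lines. SPARC lies near 10.8 on both treated arrays and near 6.3 on both vehicle arrays, SPOCK1 and SPOCK2 are higher and SPOCK3 is lower on the treated arrays, and the groups overlap for SPARCL1, SMOC1 and SMOC2.

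SPARC (osteonectin) is the founding member, a collagen-binding glycoprotein of bone, basement membranes and remodelling tissue. Its level was 10.86 and 10.78 on the treated arrays, against 6.29 and 6.32 on the vehicle arrays. The replicates of each group lay close together and the groups far apart. The group means were 10.82 ± 0.06 in treated and 6.31 ± 0.03 in vehicle cells (SD, n = 2 each), a 22.8-fold rise (log2 fold change 4.51, SE 0.11, 95% interval 4.24 to 4.78, limma adjusted p = 2.56e-06). This was the 50th highest log2 fold change of the 17958 genes. In a population of cells, a change in every cell and a change in the share of cells that express a gene cannot be told apart.

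The 250 bases before the annotated start of SPARC, which RefSeq places on chromosome 5 on the minus strand at chr5:151686916-151687165 (GRCh38.p14), are shown because the agent acts on methylation of CpG, and SPARC made the largest change of the family. The same window of SPARCL1 (chr4:87529377-87529626, minus strand), the nearest relative of SPARC, and the most upstream of 3 annotated windows of SPOCK3 (chr4:167234495-167234744, minus strand), the measured family member that fell, are shown for comparison. Each reads 5′ to 3′ on the strand of the gene, with CpG dinucleotides in capitals.
SPARC: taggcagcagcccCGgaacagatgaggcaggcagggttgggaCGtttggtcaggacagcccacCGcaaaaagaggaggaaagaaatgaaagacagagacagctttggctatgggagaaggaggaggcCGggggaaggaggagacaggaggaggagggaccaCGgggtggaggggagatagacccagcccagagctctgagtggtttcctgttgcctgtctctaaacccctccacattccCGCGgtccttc
SPARCL1: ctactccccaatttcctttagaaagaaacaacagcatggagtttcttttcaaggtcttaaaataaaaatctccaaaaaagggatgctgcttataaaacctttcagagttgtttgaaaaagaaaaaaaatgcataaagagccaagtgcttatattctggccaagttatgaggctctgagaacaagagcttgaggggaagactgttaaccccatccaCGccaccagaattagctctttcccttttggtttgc
SPOCK3: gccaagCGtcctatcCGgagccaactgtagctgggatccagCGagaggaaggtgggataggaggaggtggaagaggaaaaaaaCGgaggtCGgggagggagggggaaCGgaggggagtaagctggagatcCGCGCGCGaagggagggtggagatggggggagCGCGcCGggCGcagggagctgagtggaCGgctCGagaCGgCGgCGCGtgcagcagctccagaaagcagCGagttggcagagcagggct

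The SPARC window held 7 CpG, with an observed over expected CpG ratio of 0.34 and 59.2% G+C. The median over 35114 RefSeq windows of the same length was 11 CpG and a ratio of 0.558, and 43.7% of windows had 7 CpG or fewer. The window is rich in short purine runs: GGAGG, counted on both strands with overlaps allowed, occurred 9 times. At least 9 matches were found in 1.1% of all windows, and at least 1 match in 72.4%. Other family windows also held several: SMOC2 had 7, the SPOCK3 windows 7, 5 and 2, and FSTL1 5. The SPOCK2 windows had 3 and 0, SMOC1 1 and SPARCL1 0. No GGGCGG and no TATAAA was found in the SPARC window on either strand, motifs held by 42.6% and 10.7% of windows. The SPOCK2 and SPOCK3 windows held neither motif as well, whereas SPARCL1 and SMOC1 each held 1 TATAAA. A match describes the letters and was not tested as a binding site.

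SPARCL1 (hevin) resembles SPARC in its carboxy-terminal part and carries an additional long acidic region; it is best known from endothelium and astrocytes. Its level was 4.41 and 4.14 on the treated arrays, against 3.94 and 4.25 on the vehicle arrays. The groups overlapped. The log2 fold change was 0.18 (SE 0.16, 95% interval -0.19 to 0.55, limma adjusted p = 0.449). Its promoter window differed from that of SPARC in composition, with 1 CpG, 38.8% G+C and 1 TATAAA.

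SMOC1 and SMOC2 add thyroglobulin-type domains to the shared architecture and are associated with basement membranes. SMOC1 is an antagonist of bone morphogenetic protein (BMP) signaling, and SMOC2 is a marker of intestinal stem cells. SMOC1 was measured at 4.77 and 5.09 in treated cells, against 4.70 and 5.02 in vehicle cells, and its groups overlapped. Its log2 fold change was 0.07 (SE 0.17, 95% interval -0.33 to 0.47, limma adjusted p = 0.804). SMOC2 was measured at 4.06 and 4.11 in treated cells, against 4.13 and 4.01 in vehicle cells, also with overlap. Its log2 fold change was 0.01 (SE 0.12, 95% interval -0.26 to 0.29, limma adjusted p = 0.943). Neither gene had a stable direction: the sign turned when single arrays were left out and after repeated quantile normalization. Both promoter windows were richer in CpG than that of SPARC, with 17 CpG in SMOC1 (ratio 0.646) and 24 in SMOC2 (ratio 0.731).

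The testicans SPOCK1, SPOCK2 and SPOCK3 are proteoglycans of brain and other tissues, whose core proteins join the SPARC-type domains to a thyroglobulin-type domain. Testican-1, the product of SPOCK1, is known as an inhibitor of cathepsin L. Members of the group act on activation of pro-MMP2 by membrane-type matrix metalloproteinases, inhibition by testican-3 and relief of that inhibition by testican-2 having been described. The 3 genes did not move together.

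SPOCK1 was measured at 5.85 and 5.83 in treated cells, against 5.08 and 5.06 in vehicle cells. Replicates were close and the groups separate. It rose 1.71-fold (log2 fold change 0.77, SE 0.11, 95% interval 0.51 to 1.04, limma adjusted p = 0.00326).

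SPOCK2 was measured at 5.66 and 5.91 in treated cells, against 5.03 and 4.94 in vehicle cells. The lowest treated value lay above the highest vehicle value. It rose 1.74-fold (log2 fold change 0.80, SE 0.13, 95% interval 0.49 to 1.11, limma adjusted p = 0.00536). The 2 annotated promoter windows of SPOCK2 held 5 and 11 CpG (ratios 0.3 and 0.622).

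SPOCK3 was measured at 4.62 and 4.27 in treated cells, against 5.37 and 5.75 in vehicle cells. Both treated arrays lay below both vehicle arrays, with a wider spread within the groups than for SPOCK1. It was 2.16-fold lower (log2 fold change -1.11, SE 0.18, 95% interval -1.54 to -0.69, limma adjusted p = 0.00475), the 297th lowest log2 fold change of all genes. Its 3 annotated windows, which overlap, held 21, 20 and 10 CpG (ratios 0.947, 0.903 and 0.42). The window shown above had the highest observed over expected ratio among the 10 family windows in the table, and belonged to the gene that fell.

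**Figure D2:**
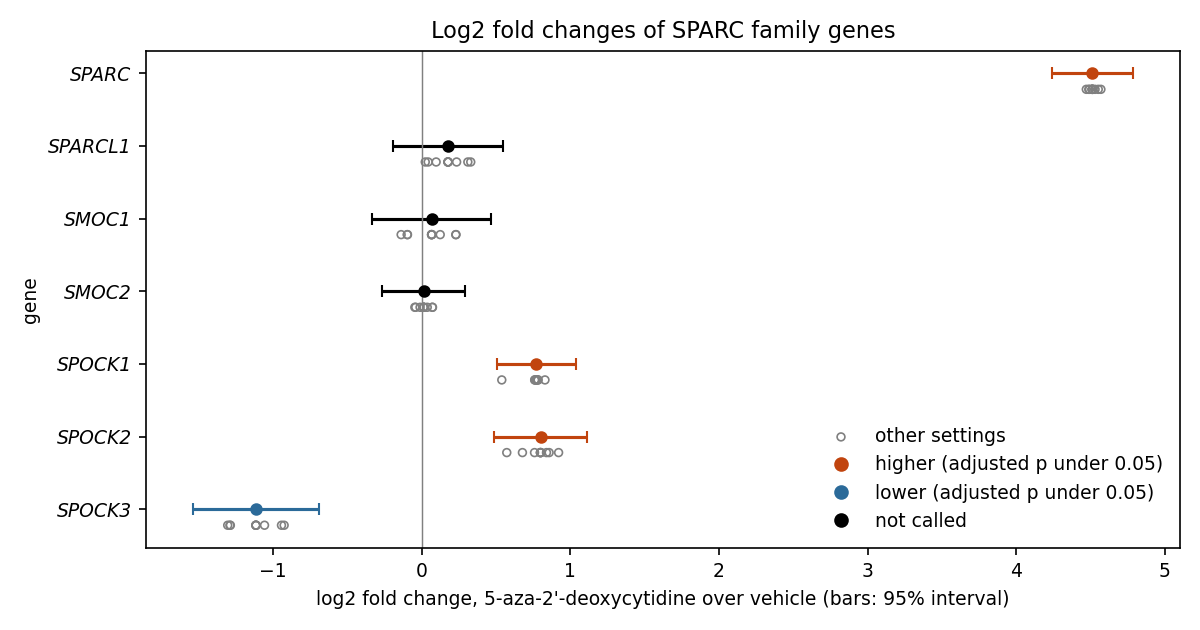
Log2 fold change of treated over vehicle cells (horizontal axis) for each SPARC family gene, with 95% intervals as bars and the estimates under the other processing settings as open circles. SPARC stands at 4.51, SPOCK1 and SPOCK2 at 0.77 and 0.80 and SPOCK3 at -1.11, while the intervals of SPARCL1, SMOC1 and SMOC2 include 0.

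**Figure D3:**
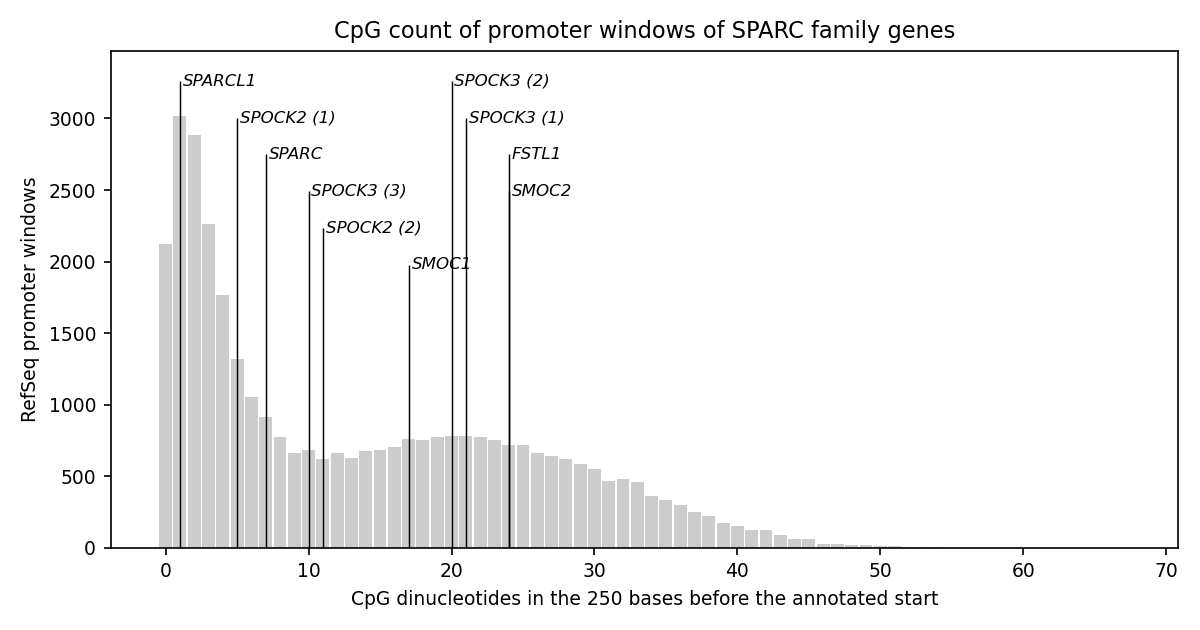
Number of CpG dinucleotides in the 250 bases before the annotated start (horizontal axis) over 35114 RefSeq promoter windows (bars, number of windows), with the windows of SPARC family genes as lines; numbers in brackets tell several windows of a gene apart. SPARCL1 (1 CpG) lies in the CpG-poor part, SPARC (7 CpG) below the median of 11, and SMOC2 and FSTL1 (24 CpG each) in the CpG-rich part.

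Promoter windows were found for 7 of the 8 family genes, SPOCK1 being the other. Of the genes that rose, SPARC had 7 CpG and the SPOCK2 windows 5 and 11. The windows of SPOCK3, which fell, had 21, 20 and 10. Of the genes not called, SPARCL1 had 1, SMOC1 17 and SMOC2 24. Bases after the annotated start were not counted, and whether CpG content goes with the response was not tested. With so few genes this is a description without a test.

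FSTL1 encodes a secreted follistatin-like glycoprotein that binds BMP4 and is known as an antagonist of BMP signaling. The probe set that names both FSTL1 and MIR198 was measured at 9.51 and 9.29 in treated cells, against 8.76 and 8.61 in vehicle cells. Its groups did not overlap. In a limma fit over all 33297 probe sets its log2 fold change was 0.72 (SE 0.14, 95% interval 0.36 to 1.07, adjusted p = 0.0372). The signal cannot be assigned to either gene from the annotation.

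The chromosomal neighbours of the family were examined next, taking for each of the 7 genes the nearest gene with its own probe set on either side in the RefSeq order (chosen after values were seen; genes without a probe set may lie between). Of the 14 neighbours, 2 were called higher and 2 lower, a share near the 12.4% and 15.6% of all genes, so the neighbours as a set did not stand out and the following values only describe single genes. THBS2, the next tested gene after SMOC2 on chromosome 6 and itself a matricellular thrombospondin, rose (log2 fold change 2.76, SE 0.17, limma adjusted p = 8.05e-05), whereas SMOC2 was not called. ANXA10, an annexin next to SPOCK3 on chromosome 4, fell by 3.23 on the log2 scale (SE 0.15, limma adjusted p = 2.43e-05), the same direction as SPOCK3. Beside SPARC on chromosome 5, ATOX1, a copper chaperone, rose by 0.79 (SE 0.13, limma adjusted p = 0.00499), and the cadherin-related FAT2 was not called (log2 fold change 0.34, SE 0.16, adjusted p = 0.162). NUDT9, a nucleotide hydrolase gene next to SPARCL1, fell by 0.61 on the log2 scale (SE 0.16, adjusted p = 0.0272). Neither neighbour of SPOCK1, SPOCK2 or SMOC1 was called.

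The genes whose profile over the 4 arrays, after centring each gene on its own mean, was nearest to that of SPARC were DCAF4L2, ALPP, DPPA3 and RAB34, at Euclidean distances of 0.170, 0.201, 0.209 and 0.232 log2 units. Their log2 fold changes were 4.62, 4.41, 4.72 and 4.49. With 4 arrays in 2 groups, such a distance reflects little beyond a fold change of like size. ALPP belongs to a family of near-identical alkaline phosphatase genes, so its value is uncertain.

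Matricellular proteins outside the SPARC family included several large rises. Of 21 tested, 7 rose and 1 fell, whereas 12.4% of all genes rose and 15.6% fell. Each of the 7 rose at least 2-fold, as did 907 of the 17958 genes. This list and the related and marker lists below were chosen with earlier results of these data known. Their shares beside those of all genes are therefore a description only. The median log2 fold change was 0.17, against -0.07 over all genes. CCN2 (connective tissue growth factor) was measured at 10.56 and 10.57 in treated cells, against 6.50 and 6.36 in vehicle cells (log2 fold change 4.13, SE 0.12, limma adjusted p = 3.98e-06), near the size of the SPARC rise. THBS2 followed, with EFEMP1, a fibulin of elastic tissue (2.22, SE 0.19). The remaining rises (genes chosen after seeing values) were of CCN1 (2.20), THBS1 (1.77), TGFBI (1.51) and COMP (1.11). FBLN5, a fibulin needed for elastic fibres, fell by 0.99 on the log2 scale (SE 0.13, limma adjusted p = 0.00193). More genes of this list were called lower without 5aza replicate 2, and their share then lay near that of all genes. Periostin (POSTN), tenascin-C (TNC) and osteopontin (SPP1), matricellular proteins of stroma, were not called, with log2 fold changes of -0.44, 0.15 and -0.47 (also named after their values were seen).

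Of 28 collagens, receptors and processing enzymes that bind, crosslink, cleave or act with SPARC or the testicans, 10 rose and 2 fell, beside 12.4% and 15.6% of all genes. The median log2 fold change was 0.21, against -0.07 over all genes. MMP2, the gelatinase whose activation testicans affect, was measured at 6.11 and 6.10 in treated cells, against 3.95 and 4.17 in vehicle cells (log2 fold change 2.04, SE 0.13, limma adjusted p = 8.06e-05). MMP16, a membrane-type metalloproteinase, rose by 1.72 (SE 0.15) and TGM2, a transglutaminase that crosslinks matrix proteins, by 1.43 (SE 0.14). CTSL, cathepsin L, rose by 0.73 on the log2 scale (SE 0.13, limma adjusted p = 0.00748; chosen after seeing values). MMP7, the epithelial matrilysin, fell by 1.88 (SE 0.13, limma adjusted p = 0.000124), and CTSK, cathepsin K, by 0.53 (SE 0.14, adjusted p = 0.0280). Among the fibrillar collagens to which SPARC binds, COL1A1 rose by 0.63 (SE 0.14, adjusted p = 0.0151), while COL1A2 and COL3A1 had log2 fold changes of 0.11 and -0.03 and were not called (all 3 named after their values were seen). Fewer rises were called in this list when either vehicle array was left out, as over all genes. Fewer falls were called when 5aza replicate 1 or either vehicle array was left out. Over all genes, falls were also fewer when either vehicle array was left out, but more without 5aza replicate 1.

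Growth factors, BMP components and receptors tied to the family counted 14 rises and 3 falls among 32 genes, beside 12.4% and 15.6% of all genes. The median log2 fold change was 0.27, against -0.07 over all genes. NLGN1, a neuroligin, had an identical value of 4.77 on both treated arrays, against 3.66 and 3.19 on the vehicle arrays (log2 fold change 1.34, SE 0.17). Hevin is known in mouse to bridge neurexin and neuroligin at synapses. BMPR1B, a BMP receptor, rose by 1.25 (SE 0.15). PDGFB, a growth factor that SPARC binds, was measured at 7.31 and 7.59 in treated cells, against 6.22 and 6.29 in vehicle cells (log2 fold change 1.19, SE 0.14, limma adjusted p = 0.00125). KDR, a receptor of VEGF, fell by 0.55 (SE 0.13), and SMAD9, a mediator of BMP signals, by 0.53 (SE 0.11). ID1, a BMP target gene, was the other fall (log2 fold change -0.41, adjusted p = 0.0361; chosen after seeing values). Leaving out vehicle replicate 1 gave 7 rises, with 7.06% of all genes called higher, and leaving out vehicle replicate 2 gave 8, with 7.43% of all genes. Fewer falls of this list were called when 5aza replicate 2 or either vehicle array was left out. Over all genes, falls were also fewer in these fits.

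Other proteins with follistatin or thyroglobulin domains counted 9 rises and 2 falls among 25 genes, beside 12.4% and 15.6% of all genes. The median log2 fold change was 0.09, against -0.07 over all genes. NID1, the basement membrane protein nidogen-1, was measured at 6.42 and 6.23 in treated cells, against 3.66 and 3.58 in vehicle cells (log2 fold change 2.71, SE 0.12, limma adjusted p = 2.33e-05). CD74, an MHC class II chaperone, rose by 2.01 (SE 0.16), and IGFBP4, an insulin-like growth factor binding protein, by 1.76 (SE 0.14). Of the follistatin-like genes, FSTL5 rose by 1.54 (SE 0.17) and FSTL3, an activin antagonist, by 1.32 (SE 0.15), whereas FSTL4 and FST had log2 fold changes of 0.07 and -0.10 and were not called (these 4 genes were named after their values were seen). RECK, a membrane inhibitor of metalloproteinases, fell by 0.84 (SE 0.24, adjusted p = 0.0396), and EPCAM, an epithelial adhesion molecule with a thyroglobulin domain, by 0.72 (SE 0.12, adjusted p = 0.00495). Fewer genes of this list were called lower without vehicle replicate 1, as over all genes.

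**Figure D4:**
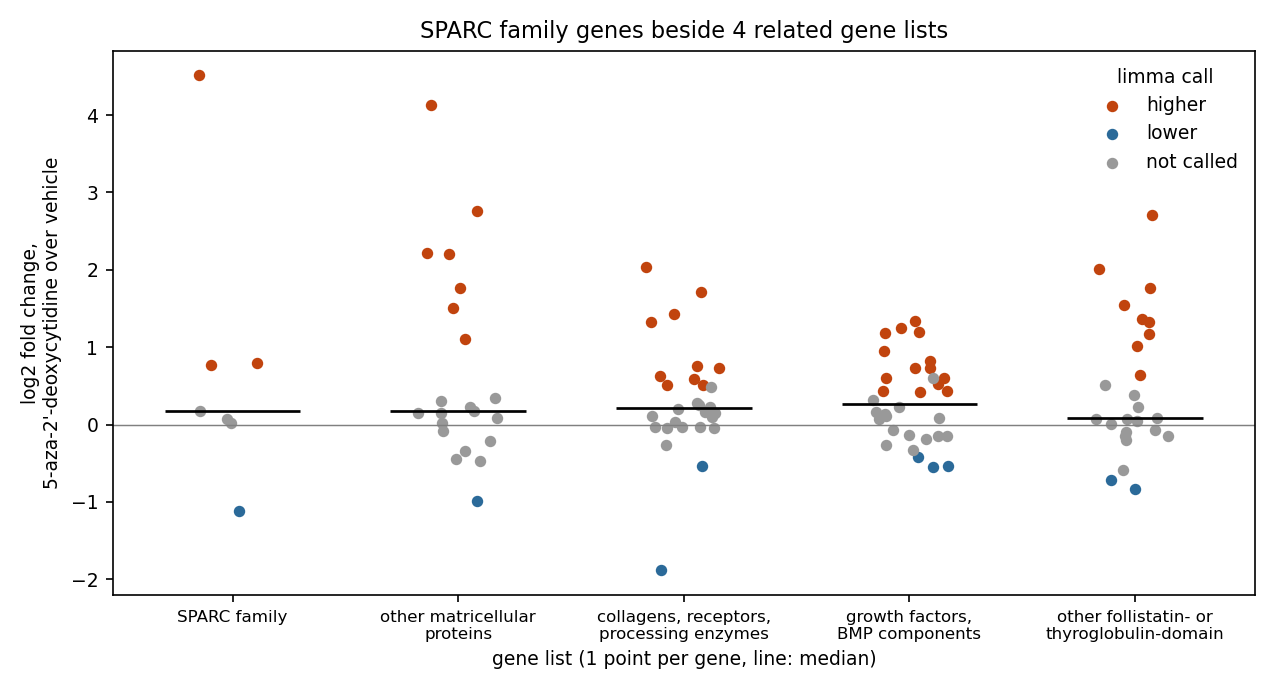
Log2 fold change of treated over vehicle cells (vertical axis) for each gene of the SPARC family and of 4 related lists (horizontal axis), 1 point per gene, coloured by limma's call, with list medians as lines. SPARC at 4.51 and CCN2 at 4.13 are the highest points, and list medians lie between 0.09 and 0.27.

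SPARC and several of these genes are also markers of stroma. The lists share genes, whose calls are counted in each. CD14, PDGFRA, PDGFRB and KDR are both markers and members of the growth factor list. COL1A1, COL1A2 and COL3A1 are both markers and members of the collagen list. EPCAM is in the domain list and among the epithelial markers. Of 37 tested markers of fibroblasts, endothelium, smooth muscle or pericytes, and leukocytes, 16 were called higher and 2 lower, beside 12.4% and 15.6% of all genes. At least 2-fold rises numbered 9 among the markers and 907 among the 17958 genes. The mean level of this list was 5.75 and 5.74 on the treated arrays, against 5.14 and 5.22 on the vehicle arrays. Among 12 fibroblast markers, 4 were called higher, 1 lower and 7 not called. The rises included THY1, a surface glycoprotein (3.15, SE 0.15), and COL6A3, a collagen VI chain (2.64, SE 0.14), and the fall was of DPT, dermatopontin (-0.44, SE 0.13). The activation protein FAP (-0.24) and the receptor PDGFRB (-0.14) were among those not called (DPT, FAP and PDGFRB were chosen after seeing values). Of 10 endothelial markers, 4 were called higher and 1, KDR, lower (-0.55). Of 7 smooth muscle or pericyte markers and of 8 leukocyte markers, 4 each were called higher, leaving 3 and 4 not called. The rises with the smallest p-values in these lists were PECAM1 (1.79) and ESAM (1.41) of endothelium, CNN1 (1.93) and MCAM (0.97) of smooth muscle or pericytes, and CD3D (1.79) and CD14 (1.18) of leukocytes. Several markers of these lists were not called. DCN and LUM, proteoglycans of fibroblasts, averaged 3.05 and 2.93 in treated cells, against 2.80 each in vehicle cells, and PTPRC, the pan-leukocyte CD45, averaged 3.12 in treated and 3.02 in vehicle cells (these 3 were chosen after seeing values). The deposited values carry no detection calls, so whether these low levels lie above background was not determined. The labels name only HCT116. Whether cells of these other types were present, or had any part in the SPARC rise, was not tested. Fewer markers were called higher without vehicle replicate 1, and fewer were called lower when either vehicle array was left out, as over all genes.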

How the data were processed

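RNA of 2 treated and 2 vehicle samples was hybridized to Affymetrix arrays. The authors deposited a log2 level for each probe set on each array, obtained in Affymetrix Expression Console by RMA (background correction, quantile normalization, probe summary), per the submitters' processing notes. The build and software versions were not stated in these sources; scanner files were not used. RMA forces like distributions on the arrays, so a change of total RNA cannot be seen, and folds of dim genes are usually compressed.

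Of 33297 probe sets, a platform annotation named 1 gene for 19181 and several for 2055, and 12061 are unnamed. Of the 19181, 19143 matched RefSeq by gene ID. The group difference was fitted in R 4.3.3 with limma 3.58.1 (lmFit, then eBayes, two-sided, no covariate, no filter on dim genes). The code was checked on simulated arrays drawn from limma's own variance model. That check cannot show that the p-values hold for these arrays, because it assumes the same model. An exact permutation test of 2 against 2 arrays cannot go below p = 0.333. The small number of arrays limits precision, and the median SE over genes was 0.13.

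Promoter windows came from RefSeq (GRCh38.p14). The array annotation's build is not stated, so probe positions are not given. Members and lists were chosen with earlier results of these data known. Genes named were the members, the 3 highest and 2 lowest called genes of each related list, up to 2 called markers per cell type by p-value, DNMT1, and the 4 profiles nearest to SPARC; others are marked in the text. Alternatives were a replicate block, each array left out, 2 other scalings, a filter on dim genes, an intensity trend, mean probe sets and a fit over all probe sets.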

Additional observations from a re-analysis of the deposited data

How the results depend on the processing

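Over all alternatives, SPARC (11 settings) and SPOCK1, SPOCK2 and SPOCK3 (10 settings each) kept their direction and their call. The log2 fold change ran from 4.47 to 4.57 for SPARC, from 0.54 to 0.83 for SPOCK1, from 0.57 to 0.92 for SPOCK2 and from -1.30 to -0.92 for SPOCK3, and the highest adjusted p was 0.000196, 0.0318, 0.0398 and 0.0310 in that order. The lowest values of SPOCK1 and SPOCK2, 0.54 and 0.57, came after repeated quantile normalization. SPARCL1 stayed uncalled, from 0.03 to 0.33. SMOC1 turned to -0.10 without 5aza replicate 2, to -0.09 without vehicle replicate 1 and to -0.14 after repeated quantile normalization, in a leave-one-out range of -0.10 to 0.23; SMOC2 turned to -0.01 without 5aza replicate 2, to -0.045 without vehicle replicate 2 and to -0.039 after repeated quantile normalization, in a leave-one-out range of -0.045 to 0.074, with no call in any setting. The causes were not tested. Without the dimmest 33.3% of genes only SPARC of the 7 genes remained, so the family counted 1 rise and 0 falls, also 0 at an unadjusted p under 0.05 in limma.

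With 1 array left out in turn, the counts of all genes ran from 1267 to 2530 higher and from 1196 to 3401 lower, and the family kept 3 higher and 1 lower. Other matricellular proteins ran from 7 to 9 higher and from 1 to 3 lower, collagens, receptors and enzymes from 4 to 11 and from 1 to 2, growth factors and BMP components from 7 to 14 and from 0 to 4, follistatin- and thyroglobulin-domain proteins from 8 to 12 and from 1 to 2, and markers of other cell types from 10 to 17 and from 0 to 3. The array left alone in its group is taken to vary like the other group.

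The labels number the samples 1 and 2 in both groups without saying that a number marks a shared culture or day. Deviations of same-numbered arrays from their group means correlated at 0.266 over genes, and with 2 pairs the numbers were not taken as a pairing. With the replicate number as a block, 3 other matricellular proteins were called lower, against 1 without it; over all genes 2805 were higher and 3834 lower, and no family call changed.

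When all probe sets were tested together, calls over all genes fell to 1433 higher and 1472 lower. Rises of the collagen list then numbered 6 and falls 1, rises and falls of the growth factor list 9 and 1, falls of the domain list 1, and falls of the markers 0 (4 at an unadjusted p under 0.05 in limma). Housekeeping centring, which moved the median of all genes by 0.06, left 1 fall in the collagen list and 1 among the markers, with 12.7% of all genes lower. Repeated quantile normalization gave 2 falls of matricellular proteins and 4 of markers, with 16.2% of all genes lower. Without the dimmest 33.3% of genes, 12 collagen-list genes remained with 0 falls (also 0 at an unadjusted p under 0.05). The growth factor list then had 9 rises among the 21 genes left, against 14 among 32 without the filter. The markers had 1 fall among the 14 genes left, against 2 among 37. Of the 11972 genes left in all, 1687 were called higher and 2770 lower. The intensity trend gave 1 fall of markers, with 16.7% of all genes lower. The causes of these differences were not tested. The filter on dim genes left fewer genes to count. Of the family, 6 genes lie among the dimmest 33.3% of genes, and the deposited values do not show which are above background.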
